A study of Mus musculus with 4 samples.

Results

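Of 12920 distinct chromatin loops called in mouse granulosa cells, 217 were called in both libraries taken after human chorionic gonadotropin (hCG), in neither library taken before it, and had no protein-coding gene end at either anchor. A loop is a pair of sites on one chromosome, its anchors, that touch more often than their surroundings do. These 217 loops were chosen by the loop calls themselves, so their presence after hCG is the selection and carries no test. They were selected on calls in the 4 loop lists and on the distance to annotated gene ends. Calls in different lists counted as one distinct loop if their anchor midpoints were no more than 20 kb apart at both ends, and a gene end was the start or the end of a RefSeq protein-coding gene within 2.5 kb of an anchor. The position and span printed for a loop are those of its call in the smallest bins, and the call in the other hCG library can lie some bins away.

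Contacts came from Micro-C, which fragments crosslinked chromatin with micrococcal nuclease, ligates ends that lay together and sequences the joined pairs. All mice were 21 days old. Follicle growth had been stimulated in each with 5 IU of equine chorionic gonadotropin, for which the labels use both eCG and PMSG. The PMSG group was collected at 0 h of hCG, with an eCG time of 46 h in the sample characteristics and of 44 h in the treatment protocol. The hCG group had the same eCG treatment and was collected at 6 h of a further 5 IU of hCG, a mimic of the luteinizing hormone (LH) surge that triggers ovulation. Each group had 2 libraries, each merged from technical replicates, and the labels do not say whether the libraries of a group came from separate mice. The libraries of a group may therefore share mice, and the spread between them may be technical. The labels name no strain, genotype or transgene. The lists hold contacts between sites and no expression values, so the granulosa identity of the cells was not checked against marker genes.

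The PMSG lists held 8305 and 6533 calls and the hCG lists 7664 and 7935. Summed over the calls, PMSG replicates 1 and 2 had 393852 and 272470 contacts, and hCG replicates 1 and 2 had 311016 and 349717. These sums move with the number and bin size of the calls. The sequencing depth of the libraries was not analysed here. Called in both hCG lists and no PMSG list were 652 distinct loops, 5.05% of 12920. Among the 4552 distinct loops without a gene end, the 217 made up 4.77%, and 197 loops with the reverse pattern, called in both PMSG lists only, made up 4.33%. The number of hCG-only loops away from gene ends was 410 without PMSG replicate 1, 287 without PMSG replicate 2, 743 without hCG replicate 1 and 737 without hCG replicate 2. A loop that is not called in a library is not thereby absent: the lists give no contact count for a pixel that was not called, so the contacts of the PMSG libraries at these 217 pixels were not analysed here.

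Loops of this size are held largely by cohesin, a ring complex that reels chromatin in until it meets CTCF bound to DNA. Other contacts join enhancers, which are often in introns or between genes, to the promoters they act on. In granulosa cells the LH surge switches the gene programme from follicle growth to ovulation and luteinization within hours, through cyclic AMP, EGF-like ligands and induced transcription factors. In bulk libraries such as these, more cells that hold a contact and more frequent contact in each cell cannot be told apart.

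Although no annotated outer end of a protein-coding gene lay at the anchors, 45 of the 217 loops held the start of at least one transcript in an anchor, and in 40 of them a start lay in the anchors called in both hCG libraries. The RefSeq promoter table on GRCm38.p6, the assembly of mm10, gave 54 sequences there. Each holds 250 bases before and 50 bases after a start. They belonged to 49 genes, of which 40 were long non-coding RNAs (lncRNAs) and 9 were protein-coding genes with a start inside the gene body: Runx1, Crybg1, Pik3r1, Lsamp, Scn2a, Pde1a, Slc7a11, Pakap and Ptp4a2. The sequences below are those of the starts in anchors of the Runx1 loops described next, of the internal start of Pik3r1 at one of the shortest loops, and of the lncRNA Gm33315, whose window held the most motif matches discussed here. They run 5′ to 3′ on the strand of the transcript, in lower case, and capitals mark matches to AP-1 or NR5A letters.
Runx1, internal start, minus strand, chr16:92697280-92697579: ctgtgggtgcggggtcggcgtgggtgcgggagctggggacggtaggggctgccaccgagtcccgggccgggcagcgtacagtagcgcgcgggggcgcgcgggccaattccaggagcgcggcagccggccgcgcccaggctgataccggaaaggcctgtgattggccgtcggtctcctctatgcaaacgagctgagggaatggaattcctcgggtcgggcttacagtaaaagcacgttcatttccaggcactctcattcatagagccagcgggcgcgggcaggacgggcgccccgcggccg
Gm30530, minus strand, chr16:93193746-93194045: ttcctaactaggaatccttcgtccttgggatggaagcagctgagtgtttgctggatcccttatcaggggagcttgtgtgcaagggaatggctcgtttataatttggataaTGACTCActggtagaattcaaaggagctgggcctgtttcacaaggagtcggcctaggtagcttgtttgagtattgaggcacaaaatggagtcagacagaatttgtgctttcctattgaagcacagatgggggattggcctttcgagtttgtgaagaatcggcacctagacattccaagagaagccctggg
1700029J03Rik, minus strand, chr16:93458823-93459122: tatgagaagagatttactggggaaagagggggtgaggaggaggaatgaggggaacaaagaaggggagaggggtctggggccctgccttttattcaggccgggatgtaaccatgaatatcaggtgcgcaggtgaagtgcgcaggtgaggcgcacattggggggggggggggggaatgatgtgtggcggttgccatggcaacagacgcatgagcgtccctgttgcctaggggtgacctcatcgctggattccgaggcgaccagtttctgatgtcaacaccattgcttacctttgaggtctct
Pik3r1, internal start, minus strand, chr13:101692581-101692880: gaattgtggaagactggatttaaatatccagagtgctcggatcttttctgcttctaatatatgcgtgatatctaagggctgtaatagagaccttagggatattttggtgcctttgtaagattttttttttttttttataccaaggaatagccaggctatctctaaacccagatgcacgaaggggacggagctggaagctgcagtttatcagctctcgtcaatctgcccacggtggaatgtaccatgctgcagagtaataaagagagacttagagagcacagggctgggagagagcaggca
Gm33315, plus strand, chr13:52828828-52829127: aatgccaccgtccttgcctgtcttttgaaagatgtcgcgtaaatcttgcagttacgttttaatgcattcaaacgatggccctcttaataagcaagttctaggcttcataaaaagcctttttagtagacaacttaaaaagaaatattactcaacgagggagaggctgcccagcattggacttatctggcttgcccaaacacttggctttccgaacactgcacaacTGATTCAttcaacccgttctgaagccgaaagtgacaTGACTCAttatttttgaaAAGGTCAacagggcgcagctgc

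The internal Runx1 start lies in a window rich in G and C (69.0%) with 35 CG pairs. The Pik3r1 window had 43.7% G and C and 6 CG pairs, and the Gm30530 window 47.3% and 5. Over the 54 sequences the median G and C content was 46.7%, against 52.7% over all 32851 sequences of the table. Motifs were searched on both strands by letters, and none of the 4 motifs shares its full letters with another. AP-1, the dimer of FOS and JUN proteins, is given as TGANTCA, NR5A, the family of SF-1 and LRH-1, as AAGGTCA, RUNX as TGTGGT and the cyclic AMP response element (CRE) as TGACGT. AP-1 letters stood in 8 of the 54 windows (14.8%) and in 7.81% of all windows of that length in the table. NR5A letters stood in 6 (11.1%), against 4.72% of all. RUNX letters stood in 6 (11.1%), against 16.8%, and CRE letters in 2 (3.70%), against 7.51%. The Gm30530 window held 1 AP-1 match. The Gm33315 window held 2 AP-1 matches and 1 NR5A match within its 300 bases, all close to the start. The Runx1, 1700029J03Rik and Pik3r1 windows held none of the 4 motifs. Some windows overlap and belong to 1 gene, a match is a description of letters only, and the shares were not tested.

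Runx1 encodes a transcription factor that the LH surge induces in granulosa cells, and it is transcribed from a distal and a proximal promoter, the latter inside the gene. The gene spans chr16:92601466-92826074, and 4 hCG-only loops away from gene ends lay within 840 kb of this locus (chr16:92620001-93460000). The first, the only loop of the 4 called in 5 kb bins in both hCG libraries, ended at a 5 kb bin that holds the start of Gm30530 (chr16:93190001-93195000). In hCG replicate 1 its other anchor was the 5 kb bin that holds the internal Runx1 start (chr16:92695001-92700000), 495 kb away, with 15 contacts against 1.23 expected from the surrounding pixels. In hCG replicate 2 it was the next bin (chr16:92690001-92695000), 500 kb away, which does not hold that start, with 16 contacts against 1.46. The observed over expected ratios were 12.2 and 10.9, with exact Poisson 95% limits of the count that give 6.83 to 20.1 and 6.23 to 17.7. The limits overlapped, but a call in both hCG libraries was part of the selection, so this is no test of their agreement. Limits of this kind cover counting error only, since contacts can include PCR copies.

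The second loop left the neighbouring bin of the same Runx1 region (chr16:92700001-92710000) and reached 750 kb to chr16:93450001-93460000, which holds the start of 1700029J03Rik. It had 76 contacts against 33.1 expected in 25 kb bins in replicate 1, and 29 against 7.08 in 10 kb bins in replicate 2. The third loop lay wholly inside Runx1, between chr16:92620001-92630000 and chr16:92690001-92700000, 70 kb apart, with 29 contacts against 9.98 and 33 against 12.3. The fourth, of 85 kb, joined chr16:93205001-93210000 to chr16:93290001-93295000 beyond the gene, with 46 contacts against 12.3 in 10 kb bins and 20 against 4.04 in 5 kb bins. All 4 had an anchor at a loop called in all 4 libraries.

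These constant loops, called in all 4 libraries, lay at the same locus. A loop of about 590 kb from the Runx1 internal start region to the far anchor of the 85 kb loop had 31 contacts against 7.20 expected in PMSG replicate 1 (10 kb bins), 66 against 22.9 in PMSG replicate 2 (25 kb), 22 against 5.41 in hCG replicate 1 (10 kb) and 15 against 1.58 in hCG replicate 2 (5 kb). A second constant loop ran from beyond the gene's end to the same internal region. Of the 4 hCG-only loops, 3 had an anchor region at or near the Runx1 internal start, where these constant loops also ended, and the 85 kb loop shared its far anchor with the constant loop of about 590 kb. Their nearest PMSG calls lay 60, 95, 75 and 358 kb away at the farther of the 2 anchors, in the order in which the loops lie along the chromosome by left anchor. When loops matched only if both anchors overlapped, the 495 kb loop, the 70 kb loop and the 85 kb loop were no longer in the class. At each of these 3 loops, the left anchors called in the hCG replicates did not overlap each other.

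**Figure D1:**
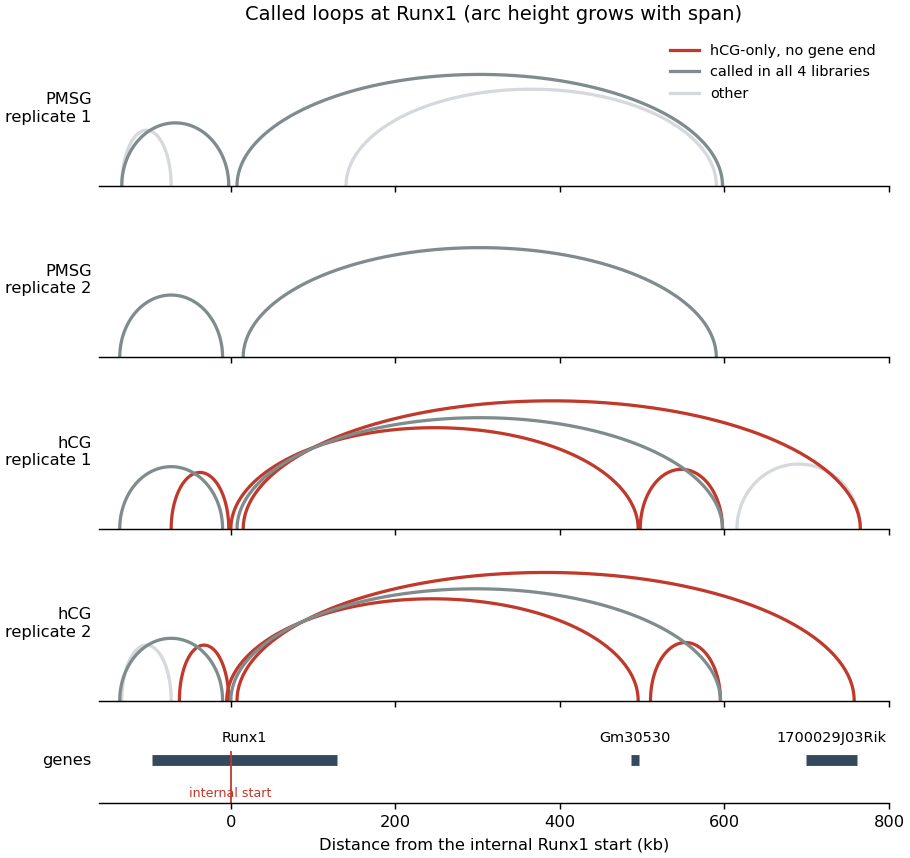
Loops called around Runx1 in each of the 4 libraries, with distance from the internal Runx1 start on the x axis in kb and genome coordinates rising to the right. Arcs join anchor midpoints, red arcs are hCG-only loops away from gene ends, dark grey arcs are loops called in all 4 libraries, light grey arcs are other calls, and bars at the bottom are genes. The 4 red loops occur in both hCG panels, and 3 of them have an anchor at or near 0 kb, where the constant loop of about 590 kb also has one.

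Other list genes with an hCG-only loop away from gene ends were few. Of 246 genes in 10 lists for the ovary, 8 held or were nearest to an anchor (3.25%), against 308 of all 21631 protein-coding genes (1.42%). The higher share was not particular to hCG-only loops: PMSG-only loops without a gene end had 11 of the 246 list genes and 324 of all genes. The lists are rich in genes with loops of any kind: 95 of the 246 (38.6%) were at some distinct loop without a gene end, against 4201 of all genes (19.4%). Of the genes at any such loop, 8.42% of the list genes and 7.33% of all genes were at an hCG-only one. The transcription factor list had 4 of 55 genes, the LH early response and EGF list 2 of 41, the list of follicular granulosa genes 1 of 41 and the endothelial list 1 of 14. None of the 14 cumulus matrix, 25 steroid and cholesterol, 23 luteal and angiogenic, 16 theca and stroma, 10 immune or 12 oocyte genes was at one.

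Among the transcription factors, Nr5a2, which encodes LRH-1, a nuclear receptor needed for ovulation and luteinization, had 2 of these loops. The first joined chr1:136900001-136905000 to chr1:136935001-136940000 inside the gene, over 35 kb, with 27 contacts against 6.44 expected in 5 kb bins in hCG replicate 1 and 46 against 19.7 in 10 kb bins in replicate 2. The second, of 110 kb, lay beyond the gene, with its nearer anchor 150 kb from the gene's end, and had 31 against 11.8 and 38 against 13.5. A constant loop of 270 to 280 kb from the gene's body to the far anchor of that second loop was called in all 4 libraries, with ratios of 4.60 (5 kb bins) and 4.98 (10 kb) before hCG and 3.07 (25 kb) and 3.84 (10 kb) after it, which bins of different size do not let one compare. The 110 kb loop had a PMSG call 30 kb off, so it lay just outside the distance at which calls were matched.

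Foxo1, a forkhead factor active in growing follicles, and Cebpb, an LH-induced factor needed for ovulation, each had 1. The loop near Foxo1 ran 540 kb from inside Maml3, a Notch coactivator (chr3:51700001-51705000), to a site 23.3 kb from the Foxo1 gene end (chr3:52240001-52245000). It had 16 contacts against 1.83 in 5 kb bins and 29 against 7.39 in 10 kb bins. From the same Maml3 anchor, a constant loop of 490 to 525 kb was called in all 4 libraries with ratios of 2.80 and 3.78 before hCG and 7.45 and 3.40 after it, in bins of different sizes. The hCG-only call ended 50 kb farther along than the constant loop, both in 10 kb bins of hCG replicate 2. A PMSG call of the constant loop, in 25 kb bins, lay 30 kb off, and the hCG-only loop left the class when calls matched within 50 kb. The loop near Cebpb joined chr2:167760001-167770000 to chr2:167880001-167890000, over 120 kb, with 40 contacts against 10 and 45 against 13.7. Its right anchor lay within 20 kb of that of a constant loop from Cebpb of 205 to 215 kb, though not in the same bins. The ratios of that constant loop were 9.28 and 8.15 before hCG and 9.35 and 8.77 after it. The hCG-only loop near Cebpb remained in the class under all 6 other ways of matching or filtering the calls.

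The EGF and LH early response genes were Btc and Il1r1. Btc encodes betacellulin, one of the EGF-like ligands that carry the LH signal through the follicle. A 355 kb loop from inside Mthfd2l, a mitochondrial folate enzyme gene (chr5:90950001-90955000), to a site 47.3 kb from Btc (chr5:91305001-91310000) enclosed 3 genes, Epgn, Ereg and Areg. Both hCG replicates had 14 contacts, where 1.73 and 1.89 were expected. A PMSG call lay 22.5 kb off, the smallest such distance among the 217 loops, which some other loops had too. Il1r1 encodes the interleukin-1 receptor, and its loop of 60 kb ran from inside that gene to inside Il1rl2, the interleukin-36 receptor gene, with 43 contacts against 15.6 and 48 against 17.8.

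Acvr1 encodes a type I receptor of the BMP and activin family. Its loop lay inside the neighbouring gene Upp2, a uridine phosphorylase gene, 13.2 kb from the Acvr1 end, with 39 contacts against 16.2 and 47 against 20. Pecam1, an adhesion molecule of endothelial cells, had a 50 kb loop from inside the gene with 41 contacts against 19.8 and 52 against 26.8. These ratios of 2.07 and 1.94 were among the lower ones. Pecam1 was the single gene from the 4 lists of other ovarian cell types (theca and stroma, endothelial, immune and oocyte). Whether cells other than granulosa cells contributed was not tested.

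Besides Runx1, 4 loci held at least 3 of the loops within 500 kb. Near Cited2, a coregulator that binds CBP and p300, 4 loops lay within 730 kb (chr10:16990001-17720000), all on one side of the gene. The nearest, of 60 kb, ended 3.23 kb from Cited2 and had 46 contacts against 13.4 and 44 against 18.4. The longest, of 570 kb, had 21 against 5.40 in 10 kb bins and 89 against 33.4 in 25 kb bins. The loops of 50 and 105 kb lay 313 and 203 kb from the gene at their nearer anchor. All 4 had an anchor at a loop called in all 4 libraries, such as the 310 kb loop that ends at Cited2, whose ratios were 3.74 and 4.24 before hCG and 5.53 and 4.95 after it.

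At Lpp, a LIM domain protein of focal adhesions, 3 loops met at one anchor region between Lpp and Tprg near chr16:25060001-25070000. They spanned 560, 130 and 195 kb. The 130 kb loop, from inside Lpp, had 24 contacts against 2.91 in 5 kb bins and 45 against 10.8 in 10 kb bins. The 195 kb loop towards Tprg had 18 against 1.60 in 5 kb bins, a ratio of 11.3, and 112 against 41.2 in 25 kb bins, a ratio of 2.72. Ratios from bins of different size are not comparable, since a larger bin averages a narrow contact with its surroundings.

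On chromosome 3, 3 loops lay within 220 kb at Cnn3, which encodes a calponin that binds actin, and Slc44a3, a choline transporter-like gene (chr3:121430001-121650000), and 3 within 565 kb from Igsf3 to Casq2. At Slc22a15, an organic ion transporter gene in the second of these, the calls of the 2 groups shared a left anchor. Their right anchors differed, as the selection requires, and contacts at pixels that were not called are not given. From the 25 kb bin at chr3:101875001-101900000, both PMSG libraries had a loop of 150 kb, with 115 contacts against 53.5 and 76 against 31.5. Both hCG libraries had a call of 100 kb, with 80 against 40.6 and 108 against 52.6. They also had a call of about 165 to 175 kb, with 13 against 2.06 in 5 kb bins and 109 against 33.9 in 25 kb bins. The longer of these hCG-only loops lay 25 kb from the PMSG call at its farther anchor, and in hCG replicate 2 it ended in the next 25 kb bin. Both hCG-only loops left the class when calls matched within 50 kb.

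The 12 loops with the highest ratios, ranked by the smaller of their 2 hCG values, spanned from 35 to 1825 kb. Their smaller ratios ran from 5.12 to 11.9. The ranking took ratios from bins of different size as they were, and ratios ran lower in larger bins. The order therefore depends in part on bin size, as does that of the single-gene loops below. The highest value belonged to a 460 kb loop from inside Myo9b, an unconventional myosin gene (chr8:71285001-71290000), to a site 15.7 kb from Fcho1 (chr8:71745001-71750000), across 27 genes. It had 13 contacts against 1.09 in 10 kb bins and 18 against 0.388 in 5 kb bins. The Runx1 loop to Gm30530 was second. A 440 kb loop on chromosome 10 joined a site 26.3 kb from 4930444G20Rik to one 95.9 kb from Raet1d, a gene for a ligand of the killer cell receptor NKG2D, with ratios of 9.34 and 9.52. A 720 kb loop around Kcnj3, which encodes a potassium channel subunit, had 21 contacts against 2.30 and 22 against 2.54, and it met every rule tried. A 375 kb loop from near Nts, the neurotensin gene, towards Alx1, a homeobox gene, had 16 against 2.07 and 21 against 2.72.

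Of the other members of the 12, an 80 kb loop around the vomeronasal receptor gene Vmn2r117 had ratios of 7.44 and 11.6, and a 35 kb loop around Klrb1c, a receptor gene of natural killer cells, 6.64 and 8.26. Vmn2r117, Klrb1c and Raet1d belong to families of near-identical copies, where reads can be hard to place, and whether that moved these calls was not tested. A 1825 kb loop between Nrxn3, a synaptic adhesion gene, and Cep128, a centriole gene, had 33 contacts against 5.00 and 38 against 6.02 with a PMSG call 25 kb off. The loops at Btc and between Vps13a and Prune2, that around Chchd7 from inside Plag1, and one of 45 kb at 692 kb from Alcam made up the rest.

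Over all 217 loops, the median contact count was 38 in hCG replicate 1 and 41 in replicate 2, against median expectations of 12.3 and 14.7. The median of the smaller ratio, taken over bins of all sizes, was 2.68 (range 1.76 to 11.9). Both libraries had a ratio of at least 2 at 198 loops, of at least 4 at 37 and of at least 5 at 14. In bins of 5, 10 and 25 kb the median ratios were 6.19, 3.27 and 2.53 in replicate 1 and 5.78, 2.88 and 2.42 in replicate 2. Loops without a gene end that all 4 libraries shared, 1400 in number, had higher medians in the same bins, at 8.25, 5.16 and 3.16 in replicate 1 and 7.52, 4.82 and 3.01 in replicate 2. Of the hCG-only calls, 51.6% and 50.7% rested on a single pixel, against 30.9% and 28.1% of the constant ones. These values entered the caller's decision, so they describe the loops and test nothing.

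The 2 hCG libraries called 153 of the loops in bins of the same size, and 108 of those at the identical pixel. Across these 153 loops, which share a caller and its local expectations, Pearson's r of the log2 ratios was 0.896. Within 5, 10 and 25 kb bins it was 0.862 (n = 13), 0.825 (n = 88) and 0.886 (n = 52). Replicate 1 had the higher ratio at 106 of the 153.

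**Figure D2:**
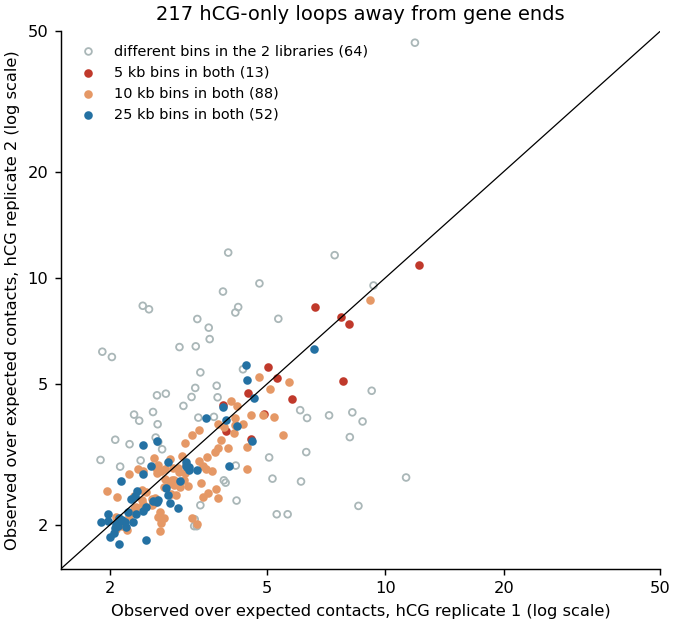
Observed over expected contact ratio of each of the 217 loops in hCG replicate 1 (x axis) and hCG replicate 2 (y axis), both on log scales, with the line of equal values. Filled points are loops called in the same bin size in both libraries, coloured by bin size, and open points are loops called in different bins. Filled points lie along the line, with 25 kb bins low and 5 kb bins high, and open points scatter widely around it.

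The loops were mostly shorter than that from Runx1 to Gm30530. Their median span was 105 kb (rank interval 100 to 130 kb, 95%), with quartiles of 55 and 240 kb. A span of up to 60 kb was found in 68 loops (31.3%, Wilson 95% interval 25.5 to 37.8), one of over 60 and up to 100 kb in 39, and one of over 1000 kb in 7. The median was 275 kb for PMSG-only loops without a gene end and 225 kb for constant ones, of which 6.6% and 6.9% spanned up to 60 kb. The 435 hCG-only loops at gene ends had a median of 100 kb, close to that of the loops away from them. Within 5, 10 and 25 kb bins the medians of the 217 loops were 90, 70 and 225 kb, those of PMSG-only loops 160, 270 and 350 kb, and those of constant loops 190, 330 and 375 kb, so the hCG-only median was the lowest of these 3 in each bin size.

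Whole lists gave the following shares. They hold the 217 loops, as 221 and 220 calls of the hCG lists and none of the PMSG lists, so they are no independent support. Of all calls without a gene end, 24.0% and 18.2% spanned up to 100 kb before hCG and 29.2% and 27.3% after it, with means of 21.1% ± 4.10 (SD, n = 2) and 28.2% ± 1.30 (SD, n = 2). The groups did not overlap. The share of all calls that had no gene end was 42.8% and 44.8% before hCG and 40.8% and 42.1% after it, a difference of -2.35 percentage points. Here too the groups did not overlap, and the two-sided exact permutation test gave p = 0.333, the smallest that 2 against 2 libraries allow.

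The shortest span, 35 kb, was that of 7 loops, the Nr5a2 loop among them. The 5 with the highest ratios joined sites around Klrb1c, near Klrb1b and BC035044, at Pik3r1, at Ptp4a2 and between Plek2 and Tmem229b. Pik3r1 encodes the regulatory subunit of phosphoinositide 3-kinase. In hCG replicate 1 its loop ran from 20.8 kb outside the gene (chr13:101655001-101660000) to the bin with the internal start printed above (chr13:101690001-101695000), with 24 contacts against 4.15. In replicate 2 both anchors lay 1 bin lower, where the second bin does not hold that start, with 24 contacts against 5.28. A further 100 kb loop left almost the same outer site in the other direction, with 44 contacts in each library against 14.3 and 16.4. At Ptp4a2, a phosphatase gene, the inner anchor held an internal start in replicate 1 (17 contacts against 4.30) and lay 1 bin beyond it in replicate 2 (19 against 5.14). Among the longest were one of 2150 kb from 255 kb off Epha5 to 62 kb off Cenpc1 and the 1825 kb loop from inside Nrxn3 to inside Cep128. One of 1260 kb ran to the inside of Taf3 from a site whose nearest gene, Gata3, lay 1097 kb away within the loop. One of 1240 kb ran from 6.56 kb off Bcl11a to a site 1077 kb from its nearest gene, Fancl. The 2150 kb loop had 27 contacts against 6.06 and 31 against 6.02, with a PMSG call 25 kb off.

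**Figure D3:**
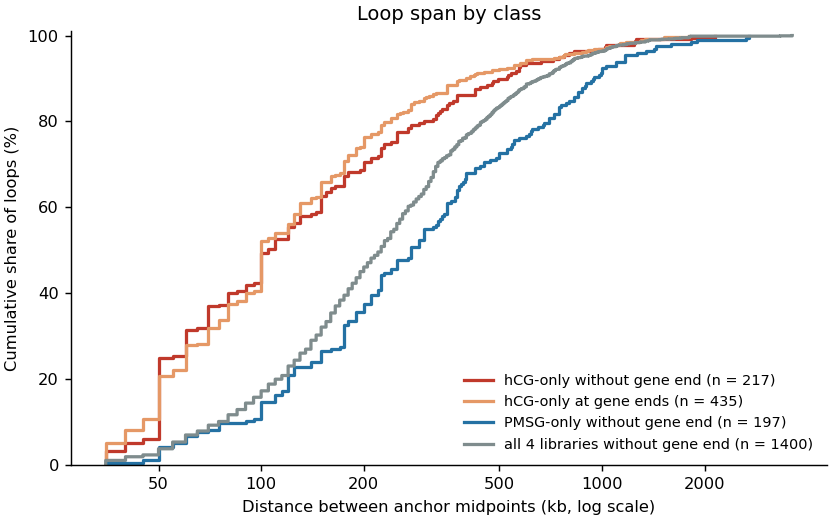
Cumulative share of loops (y axis, %) by the distance between anchor midpoints (x axis, kb, log scale) for 4 classes of distinct loops. The hCG-only loops away from gene ends (red) and at gene ends (orange) run close together with medians of 105 and 100 kb, to the left of the constant (grey, 225 kb) and PMSG-only (blue, 275 kb) loops without a gene end.

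An anchor lay inside a protein-coding gene in 143 of the 217 loops (65.9%, Wilson 95% interval 59.4 to 71.9), against 61.4% of PMSG-only and 71.8% of constant loops without a gene end. The whole loop lay inside 1 gene in 53 (24.4%, 19.2 to 30.6), against 13.2% (9.17 to 18.6) and 11.1% (9.60 to 12.9). Both anchors lay outside genes in 74, 1 anchor lay in a gene in 70, and in 20 both lay in genes but not in the same one. Short loops fit inside a gene more often. Among loops of up to 100 kb the share inside 1 gene was 35.5% (38 of 107), against 31.0% of PMSG-only (9 of 29) and 21.6% of constant loops (52 of 241). Among those over 100 and up to 200 kb it was 21.7%, against 20% and 13.6%, and among those over 200 kb 7.8%, against 6.5% and 6.5%. In whole lists, 12.8% and 11.2% of calls without a gene end lay inside 1 gene before hCG and 15.1% and 13.6% after it (12.01% ± 1.07 and 14.4% ± 1.05, SD, n = 2), the 217 loops included.

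The single-gene loop with the highest smaller ratio lay in Thsd7b, a thrombospondin domain gene, over 335 kb, with 22 contacts against 5.29 in 10 kb bins and 13 against 1.63 in 5 kb bins. The next 7 lay in Top1, the DNA topoisomerase I gene (45 kb, 22 against 4.46 and 25 against 6.09), Slc7a11, the cystine and glutamate antiporter gene (40 kb, 17 against 4.38 and 20 against 4.58), Ttc39c (80 kb), Helz (40 kb), Tanc2 (230 kb), Ncoa7 (40 kb) and Crybg1 (70 kb). An anchor of the Slc7a11 loop and one of the Crybg1 loop held an internal start. At Top1 the nearer anchor was 4.10 kb from a gene end.

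**Figure D4:**
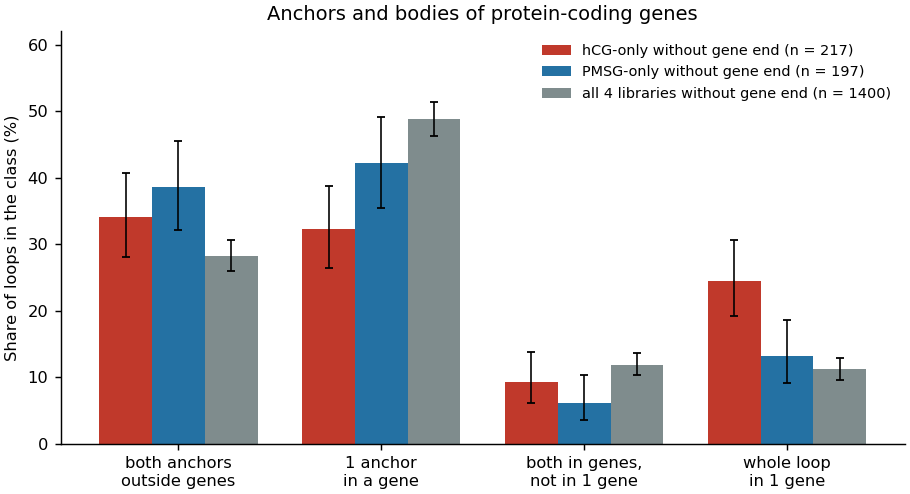
Share of loops (y axis, %) by the position of the anchors relative to protein-coding genes, for hCG-only (n = 217), PMSG-only (n = 197) and constant (n = 1400) loops without a gene end, with Wilson 95% intervals that cover counting error over loops only. Loops wholly inside 1 gene make up 24.4% of the hCG-only class, 13.2% of the PMSG-only class and 11.1% of the constant class.

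No gene lay wholly between the anchors of 153 loops (70.5%), against 59.9% of PMSG-only and 47.9% of constant loops. No protein-coding gene at all was touched by 47 (21.7%), against 22.8% and 4.6%. Both anchors were nearest to the same gene in 112 (51.6%), against 31.5% and 26.8%. These shares depend on span and were not split by it, and the hCG-only loops had the lowest median span of these classes. The distance from the nearer anchor to a gene end had a median of 19.9 kb, and it passed 100 kb in 28 loops. The farthest was a 175 kb loop at 1515 kb from Cntnap5a on chromosome 1, with 78 contacts against 32.2 in 25 kb bins and 14 against 1.68 in 5 kb bins. It was followed by the 45 kb loop 692 kb from Alcam (11 against 1.41 and 17 against 3.32), the loop between Kctd16 and Prelid2 at 578 kb, one inside Lsamp, a neural adhesion gene, at 414 kb from any gene end, and the 50 kb loop near Cited2 at 313 kb. Near the threshold, 38 loops had a gene end 2.5 to 5 kb from the anchor of a call, the closest at 2.70 kb. Of the hCG-only loops at gene ends, 41 had their nearest end off the anchor itself, up to 2.46 kb.

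In the call in the smallest bins, genes other than protein-coding ones, lncRNAs and pseudogenes among them, had an end at an anchor of 85 loops (39.2%). This compares with 39.6% of PMSG-only and 33.7% of constant loops. With the anchors of every call counted, as in the rule of the class, 115 of the 217 loops had no end of a gene of any kind. An lncRNA start from the promoter table lay in an anchor of 36 (16.6%), against 13.2% and 10.4%, and a protein-coding start in 10 (4.6%), against 1.0% and 2.6%. No miRNA hairpin overlapped an anchor itself (0 of 217, Wilson upper limit 1.74%), while Mir7212 and Mir3089 each had an end within 2.5 kb of an anchor of 1 loop. At Gm33315, the loop of 150 kb ran from the lncRNA start (chr13:52825001-52830000) to the body of Nfil3, a bZIP repressor gene (chr13:52975001-52980000), 2.88 kb from its end. It had 27 contacts against 6.20 in 10 kb bins and 14 against 2.54 in 5 kb bins.

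Many of the anchors were also anchors of loops called before hCG. At least 1 anchor lay within 20 kb of an anchor of a loop called in all 4 libraries in 136 of the 217 (62.7%, Wilson 95% interval 56.1 to 68.8), against 49.7% of PMSG-only loops without a gene end and 53.8% of hCG-only loops at gene ends. Both anchors did so in 19. The share depended on the match rule: it was 31.5% when anchors had to overlap and 42.4% when all q-values had to be at most 0.01. At least 1 anchor lay at that of some PMSG loop in 187 (86.2%), and both, paired differently, in 61 (28.1%). For hCG-only loops at gene ends these shares were 86.0% and 27.4%, and for PMSG-only loops without a gene end, set against hCG loops, they were 81.2% and 32.5%. The nearest PMSG loop lay up to 30 kb off at its farther anchor in 35 of the loops, up to 50 kb in 68, and over 100 kb in 92, with a median of 92.5 kb. No loop came closer than 22.5 kb, since matching at 20 kb removed those from the class. Among loops without a gene end that hCG and PMSG libraries shared, 32 of 2198 had nearest calls 15 to 20 kb apart. An anchor was shared with an hCG-only loop at a gene end in 20.

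**Figure D5:**
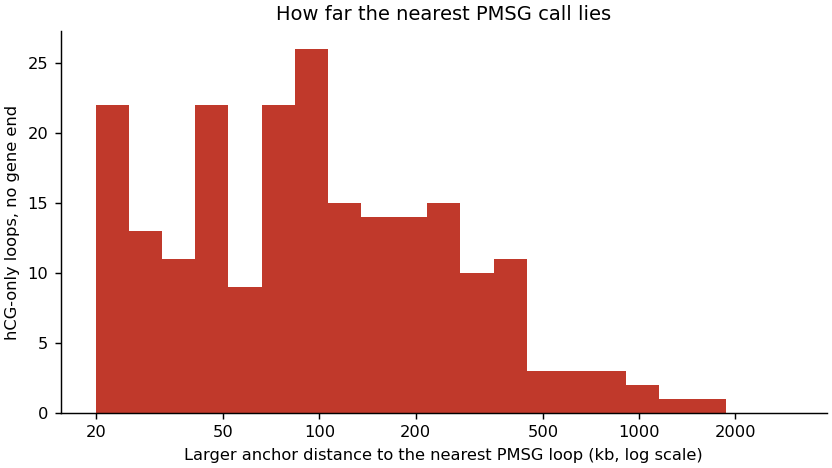
Number of hCG-only loops away from gene ends (y axis) by the distance to the nearest PMSG loop, measured at the farther of the 2 anchors (x axis, kb, log scale). The lowest value is 22.5 kb, 68 loops lie at up to 50 kb and 92 at over 100 kb.

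The loops lay on all chromosomes that were analysed, with the most on chromosome 2 (18). As a share of distinct loops without a gene end they ranged from 2.83% on chromosome 9 to 6.88% on chromosome 16 (15 of 218), around the 4.77% over all. Under 10 other rules for matching, filtering or annotating, 4 of the 217 were kept by every one. They were the Kcnj3 loop, a 50 kb loop into Arhgef28, which encodes a guanine nucleotide exchange factor for RhoA (43 contacts against 14.9 and 53 against 18.3), a 70 kb loop into Kalrn, another exchange factor gene (29 against 9.34 and 39 against 11.5), and a 50 kb loop inside Tanc1, a scaffold gene of synapses (45 against 19.5 and 53 against 24.0). Kalrn, Arhgef28 and Tanc1 fall outside the rule for named loops and were named after their values were seen. Of the 4, the Kcnj3 loop had the highest ratios, and the other 3 had ratios between 2.21 and 3.40.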

How the data were processed

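Micro-C libraries of granulosa cells (2 of PMSG, 2 of hCG, grouped by their titles) were prepared with 2 to 3 technical replicates merged per sample, per the labels' protocols. BWA and Juicer with build mm10 are named in the submitters' processing notes, and juicer_tools 1.22.01 wrote the lists, per the file headers. No source used here gives other caller settings. The authors called loops in each library separately in bins of 5, 10 and 25 kb, so a deeper library can pass more loops. Per the file headers, the deposited observed contact count is a whole number, not normalized, the deposited expected contact signal comes from 4 local neighbourhoods, and the deposited FDR is a q-value, at most 0.0994. The authors' score, the number of pixels merged into a call, was used to count 1-pixel calls.

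From these, calls were linked into distinct loops, and the ratio is the observed count over the donut expectation. A loop takes the position of its call in the smallest bins. Genes came from RefSeq on GRCm38.p6: 21631 protein-coding genes, matched by position, 27923 genes of other kinds, and promoter sequences of 27025 genes. That table gives no exons. All 246 list genes were found. Positions count from 1. The CTCF motif planned for the anchors was not searched. The loops and lists were chosen with earlier results of these data known. Named loops were the 12 with the highest smaller ratio, the 5 longest, 5 shortest and 5 farthest from a gene end, 8 single-gene loops with the highest ratio, all at list genes, and loci of at least 3 within 500 kb. One loop that this rule names is not reported here. The tests were two-sided exact permutation tests over libraries, and shares carry Wilson 95% intervals, which treat loops as independent. Alternatives were other match rules, FDR limits, list lengths, gene windows, gene kinds and bins, and each library left out. Matching was tested on simulated lists copied from the calls of 1 library, with small shifts and with bin sizes kept. They do not test how calls in different bins, or calls farther apart, are matched. Python 3.11.15, numpy 2.4.6, pandas 2.3.3, scipy 1.17.1 and matplotlib 3.10.9 were used.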

Additional observations from a re-analysis of the deposited data

How the results depend on the processing

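Of the 217 loops, 202 were kept when calls matched within 10 kb, 146 within 50 kb, 156 when both anchors had to overlap, 137 with all q-values at most 0.01, 128 with lists of equal length and 136 in 5 and 10 kb bins only. The number in the class moved to 144 with a gene window of 10 kb and to 115 with genes of all kinds, where 79.1% had an anchor inside a gene and 32.2% lay inside 1. The share with an anchor at a constant loop was 52.6% (10 kb matching), 31.5% (overlap), 42.4% (q-values), 53.1% (equal lists) and 45.8% (5 and 10 kb bins), and the median smaller ratio 2.87, 3.45, 2.92, 2.92 and 3.35. The median span was 150 kb (overlap), 135 kb (equal lists) and 85 kb (5 and 10 kb bins), and 17.97% lay inside 1 gene under overlap. Leaving out 1 library gave 287 to 743 loops, median spans of 120 to 145 kb, 53.7% to 64.1% with an anchor at a constant loop, 21.2% to 24.7% inside 1 gene, 66.1% to 70.2% with an anchor inside a gene and median ratios of 2.78 to 2.94. Leaving out a library loosens the class rule, so the number of loops can only rise. A wider gene window or more kinds of genes can only take loops out. The cause of the other moves was not tested. The difference in the share of calls without a gene end ranged from -3.33 to -1.38 with 1 library left out and kept its sign under every alternative run. With the replicate number as a block it was -2.35 (exact sign-flip p = 0.5, the smallest possible), from -2.00 and -2.71 within the numbers. The numbers were not shown to pair the libraries. The median hCG-only pixel called in 5 kb bins held 16.5 and 17.5 contacts in hCG replicates 1 and 2. A loop missing from a list may have fallen short of the caller's threshold, and whether depth decided this was not tested.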
